A study of Mus musculus with 4 samples.

Results

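The interferon-inducible GTPases examined were 10 genes of 32285 in the count matrices, listed by name rather than by any measured value. Of these, 6 belong to the immunity-related GTPases (IRG): Iigp1, Gm4841, Igtp, Irgm1, Irgm2 and Ifi47. The other 4, Gbp2, Gbp3, Gbp5 and Gbp7, are guanylate-binding proteins (GBP). They were followed in mouse mammary organoids, which are epithelial cells of the gland grown in a gel matrix, by droplet single-cell RNA-seq of 4 libraries. WT came from wild-type organoids and B2 from organoids of littermates with a germline truncating mutation on 1 Brca2 allele (Brca2mut/WT). WT-HU and B2-HU were the same genotypes treated with 1 mM hydroxyurea, an inhibitor of ribonucleotide reductase that stalls DNA replication. In the study's serial scheme each exposure lasted 24 h, was followed by a recovery period and was repeated at every passage. Organoids of passages 0 and 4 were profiled, so treated cells may have had a single exposure or several, and which cells of a library belong to which passage is not given in the sources used here. The donors were virgin females, and the study chose aged mice for its experiments after the first comparisons of age. All organoids had been frozen, thawed and cultured for 3 days, so the controls share that handling. Each label names 2 replicates, but they were sequenced as 1 library, so a difference between conditions had no replicate test and cells were not used as replicates.

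Interferons made by infected or damaged cells bind receptors that signal through JAK kinases and STAT factors, and a large set of genes is switched on in response. IRG and GBP proteins are among the most inducible of these products in mice: they bind and hydrolyse GTP and assemble on the membranes around intracellular pathogens, which leads to rupture of the vacuole and to inflammasome activation. Effector IRG proteins such as Iigp1 and Ifi47 load onto the target membrane, while the regulatory ones, Irgm1, Irgm2 and Igtp (also called Irgm3), sit on the cell's own membranes and restrain the effectors there.

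The factors that interferon activates bind the interferon-stimulated response element (ISRE), whose core was searched on both strands as GAAA, any 2 bases and GAAA, and the gamma-activated site (GAS), searched as TTC, any 3 bases and GAA, which reads the same on both strands. RefSeq promoter windows of 300 bases (250 before and 50 after the start site, build GRCm38.p6) matched 8 of the 10 genes by symbol. Iigp1 and Gm4841 had no entry. An ISRE core lay in the windows of 7 of these 8 genes, against 3.44% of all 32851 promoter windows of that length. The 30 bases around each core are shown because they are the sequence feature that these genes share outside the expression data. They are written 5′ to 3′ on the gene's strand, and capitals mark the ISRE core, including overlapping matches.
Igtp: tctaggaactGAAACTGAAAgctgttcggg
Irgm2: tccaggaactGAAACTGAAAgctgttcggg
Irgm1: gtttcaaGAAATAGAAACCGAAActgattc
Gbp2: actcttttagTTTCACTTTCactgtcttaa
Gbp3: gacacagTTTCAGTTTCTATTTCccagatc
Gbp5: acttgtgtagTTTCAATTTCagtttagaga
Gbp7: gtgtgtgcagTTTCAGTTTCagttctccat
These windows are at chr11:58199512-58199541 (Igtp, plus strand), chr11:58214903-58214932 (Irgm2, plus) and chr11:48871428-48871457 (Irgm1, minus). The GBP windows, all on the plus strand, are at chr3:142620594-142620623 (Gbp2), chr3:142559992-142560021 (Gbp3), chr3:142496759-142496788 (Gbp5) and chr3:142530273-142530302 (Gbp7). The core ended 14 bases before the start site in Irgm1, 24 in Igtp and 29 in Gbp3, and 155 bases before it in Gbp5. Irgm1 and Gbp3 held 2 overlapping cores. The window of Ifi47 and a second window of Gbp3 held neither motif. A GAS match was found in 4 of the 9 windows, those of Igtp, Irgm2, Gbp5 and Gbp7, against 8.3% of all windows. A match is a description of letters, and binding was not measured.

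The 4 GBP genes lie in 1 cluster on chromosome 3, between position 142493978, where Gbp5 starts in the GENCODE M21 annotation, and position 142638008, where Gbp2 ends. Igtp, Irgm1, Irgm2 and Ifi47 are on chromosome 11, and Iigp1 and Gm4841 on chromosome 18. In that annotation Irgm2 (58199618 to 58222782) and Igtp (58199556 to 58207591) overlap on the same strand, and several of these genes have near-identical copies. Reads that fit more than 1 gene can be lost or misplaced in counting, so levels of Igtp, Irgm2, Gm4841 and the GBP genes are uncertain to that extent.

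After the study's cell filter 3293 to 5312 cells per library remained, with a median of 24180 to 26893 UMIs (unique molecular identifiers, each standing for 1 captured transcript). Between 16 and 30 cell barcodes were shared by any pair of libraries. Brca2 itself had 5.34 CPM (counts per 1000000 UMIs of the cells summed, not scaled to gene length; exact Poisson 95% interval 4.94 to 5.75) in WT and 5.50 (5.07 to 5.95) in WT-HU, against 4.27 (3.87 to 4.70) in B2 and 3.92 (3.5 to 4.37) in B2-HU. The mutated allele can still give counted 3′ tags, so this is only a partial check of the genotype labels. Cells were called basal at 500 CPM or more of Krt14, hormone receptor-positive (HR+) luminal at 300 CPM or more of Areg, and hormone receptor-negative (HR-) luminal where both were under 300 CPM. That gave 14008 HR- luminal, 2217 basal and 569 HR+ luminal cells. All 9 basal markers were higher in basal than in HR- luminal cells, all 8 HR- luminal markers were lower there, and all 8 HR+ markers were higher in HR+ cells (edgeR, adjusted p under 0.05). The classes were not clean by every marker. In basal cells 5 of the 8 HR+ markers were also higher than in HR- luminal cells, led by Ly6a (log2 difference 3.79), and 1 was lower. In HR+ cells 6 of the 8 HR- luminal markers were lower, but Krt18 was higher (0.48) and Aldh1a3 did not pass. Of the 9 basal markers 5 were lower there and Krt14 was higher (0.46). Krt14 and Areg are among these markers and chose the cells.

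In HR- luminal cells, the progenitor-rich lineage that makes up most of these cultures, the summed level of the 10 genes was 314.7 CPM in WT, 295.0 in WT-HU, 378.5 in B2 and 405.4 in B2-HU. Among the IRG effectors, Iigp1 was measured at 91.3 CPM in WT, 79.8 in WT-HU, 102.7 in B2 and 120.0 in B2-HU. The Poisson intervals of these 4 libraries do not touch. Ifi47 was at 20.1, 20.4, 23.1 and 26.4 CPM in the same order of libraries. Of the regulators, Irgm1 was at 38.7, 44.1, 47.5 and 56.4 CPM, Irgm2 at 8.68, 8.03, 10.5 and 9.80, and Igtp at 23.4, 24.5, 30.8 and 33.3. In Igtp and Irgm2 the counting intervals of the treated and control library overlapped in both genotypes, and in Ifi47 those of WT and WT-HU did. Gbp3 was at 66.7, 67.9, 89.4 and 95 CPM, and Gbp2 at 18.7, 18.8, 20.9 and 23.9. Gbp7 had another order, with 44.5 CPM in WT, 29.7 in WT-HU, 52.1 in B2 and 39.3 in B2-HU, so both hydroxyurea libraries were the lowest. Gm4841 and Gbp5, a GBP linked to inflammasome activation, were near 1 CPM everywhere: Gm4841 at 1.47, 1.07, 0.612 and 0.704 and Gbp5 at 1.17, 0.699, 0.751 and 0.620 CPM.

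**Figure D1:**
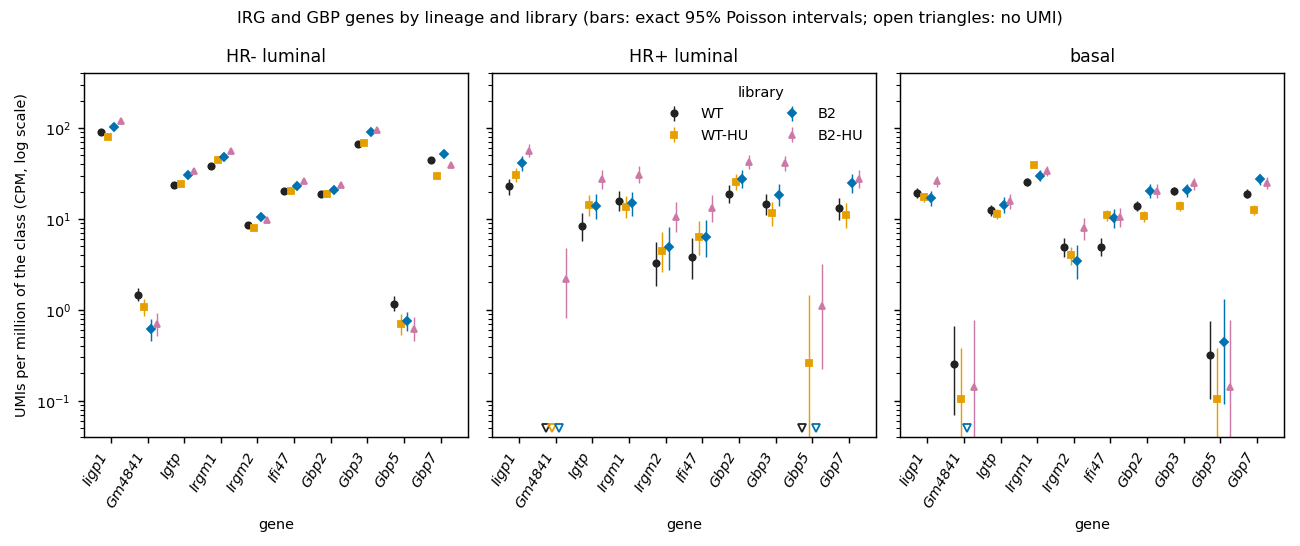
Level of each of the 10 genes (CPM of the class, log scale, with exact 95% Poisson intervals for counting error) in HR- luminal, HR+ luminal and basal cells of the 4 libraries; open triangles at the bottom mark classes with no UMI of the gene. Iigp1 lies at 79.8 to 120.0 CPM in HR- luminal cells and at 16.8 to 26.0 CPM in basal cells, while Gbp2 in HR+ cells (19.0 to 42.5 CPM) is at or above its HR- luminal level.

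The lineage with the highest expression was HR- luminal for most of the genes. Sums per library and lineage were compared with edgeR's quasi-likelihood test, the library as a block and Benjamini-Hochberg adjustment over all genes. Of the 10 genes, 8 passed the filter on low counts, Gm4841 and Gbp5 being too rare. In basal cells 8 of these 8 were lower than in HR- luminal cells, beside 33.3% of all genes tested that were lower and 32.4% that were higher. Iigp1 was at 19.3, 17.2, 16.8 and 26.0 CPM in the basal cells of WT, WT-HU, B2 and B2-HU, below its HR- luminal level in 4 of 4 libraries (log2 difference -2.43, SE 0.13, adjusted p = 2.97e-08). Gbp3, at 20.3, 14.0, 20.7 and 24.6 CPM in basal cells, was also lower in 4 of 4 libraries (-2.14, SE 0.16, adjusted p = 4.37e-07). The smallest differences were those of Irgm1 (-0.67, SE 0.13, adjusted p = 0.00088) and Gbp2 (-0.52, SE 0.14, adjusted p = 0.0066), whose level in B2 differed little between the lineages (20.3 against 20.9 CPM). The median of the 8 genes was -1.17 and that of all genes tested -0.01.

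In HR+ luminal cells 7 of the 8 genes tested were lower than in HR- luminal cells (edgeR, adjusted p under 0.05), beside 34.2% of all genes lower and 31.3% higher. Gbp3 showed the largest difference (-2.18, SE 0.18, adjusted p = 1.28e-06), with 14.5, 11.6, 18.5 and 41.0 CPM in WT, WT-HU, B2 and B2-HU, followed by Ifi47 (-1.88, SE 0.23, adjusted p = 2.77e-05). Gbp2 did not pass: it had 19.0, 25.7, 27.7 and 42.5 CPM in HR+ cells, at or above the HR- luminal value in each library, and its difference was 0.25 (SE 0.15, adjusted p = 0.17). Limiting the cells to those with 1 antibody tag brought Gbp2 past the threshold (0.32), and a wider cell filter, with no upper limit on genes per cell and a mitochondrial limit of 10%, turned its sign (-0.06). The HR+ class is small, with 123 to 176 cells per library. In B2-HU, 2 of the 123 HR+ cells had a UMI of Gm4841 or Gbp5, against 0 in WT, 1 in WT-HU and 0 in B2. These 2 cells held 26.9% of the members' UMIs in HR+ cells of B2-HU. Without them the summed level there fell from 253.0 to 189.1 CPM, a fall in part set by picking cells on members' UMIs. Of the 5 stromal markers, Dcn was high in HR+ cells (702.3 to 1661 CPM) while Col3a1 and Lum had no UMI, Col1a1 had 1 UMI over the 4 libraries and Pdgfra 0 to 3 UMIs in each. The 13 immune markers summed to 2.20 to 12.6 CPM in these cells. Their part in the result was not tested.

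Within HR- luminal cells, those with at least 150 CPM of Tmigd1 and Sez6 together carried more of most of these GTPases. There were 296 such cells in WT, 78 in WT-HU, 801 in B2 and 424 in B2-HU. Irgm1 was at 70.3 CPM in them against 35.9 in the other HR- luminal cells of WT, at 61.3 against 43.6 in WT-HU, at 81.8 against 38.3 in B2 and at 132.2 against 44.0 in B2-HU. Its level was higher in 4 of 4 libraries (log2 difference 0.94, SE 0.13, adjusted p = 0.00064, edgeR with the library as a block). Of the 10 genes tested 8 were higher, beside 18.2% of all genes higher, and 0 were lower, beside 20.5% of all genes. Igtp had the largest difference (1.03, SE 0.16, adjusted p = 0.00090), followed by Irgm1 and by Gbp3 (0.90, SE 0.16, adjusted p = 0.0021). Irgm2 was higher by 0.76, Ifi47 by 0.71, Iigp1 by 0.60, Gbp7 by 0.51 and Gbp2 by 0.38 on the log2 scale. Gm4841 (-0.19, adjusted p = 0.85) and Gbp5 (-1.06, adjusted p = 0.16) did not pass. Beside this, all 8 HR- luminal markers were lower in these cells (median -0.88). Of the 8 HR+ markers, Prom1 (2.06), Pgr (1.75) and Foxa1 (1.63) were higher. Esr1 (-1.14), Ly6a (-1.82) and Cited1 (-1.03) were lower, and Areg and Prlr did not pass. The median depth of these cells was 30350 against 24296 UMIs in WT and 28077.5 against 27457.5 in B2-HU. The part of depth in the result was not tested beyond cells with at least 10000 UMIs, among which 8 of the genes were again higher. Beside them 2523 of all 14146 genes tested were higher and 2860 lower.

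The size of this difference was not the same in all libraries. Iigp1 was at 130.5 against 87.9 CPM in WT, at 89.9 against 79.5 in WT-HU, at 142.8 against 91.9 in B2 and at 264.7 against 96.3 in B2-HU. The intervals of WT-HU overlap (77.7 to 103.5 in the 78 cells with the marker genes), so the difference in that library is within counting error. Ifi47 and Gbp7 were not higher in WT-HU (18 against 20.5 and 26.3 against 29.8 CPM). Whether the difference itself varies between conditions was not tested, since each condition has 1 library. Without the B2-HU library 5 of the 10 genes remained past the threshold (Iigp1, Igtp, Irgm1, Irgm2 and Gbp3), Gbp5 became lower (-2.11, adjusted p = 0.019), and the values of Ifi47, Gbp2 and Gbp7 were 0.48, 0.18 and 0.33. Of all 14413 genes tested without that library 1555 were higher and 2046 lower. Gbp2 also missed the threshold without WT (0.42) or WT-HU (0.41) and Gbp7 without WT (0.57) or B2 (0.44).

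**Figure D2:**
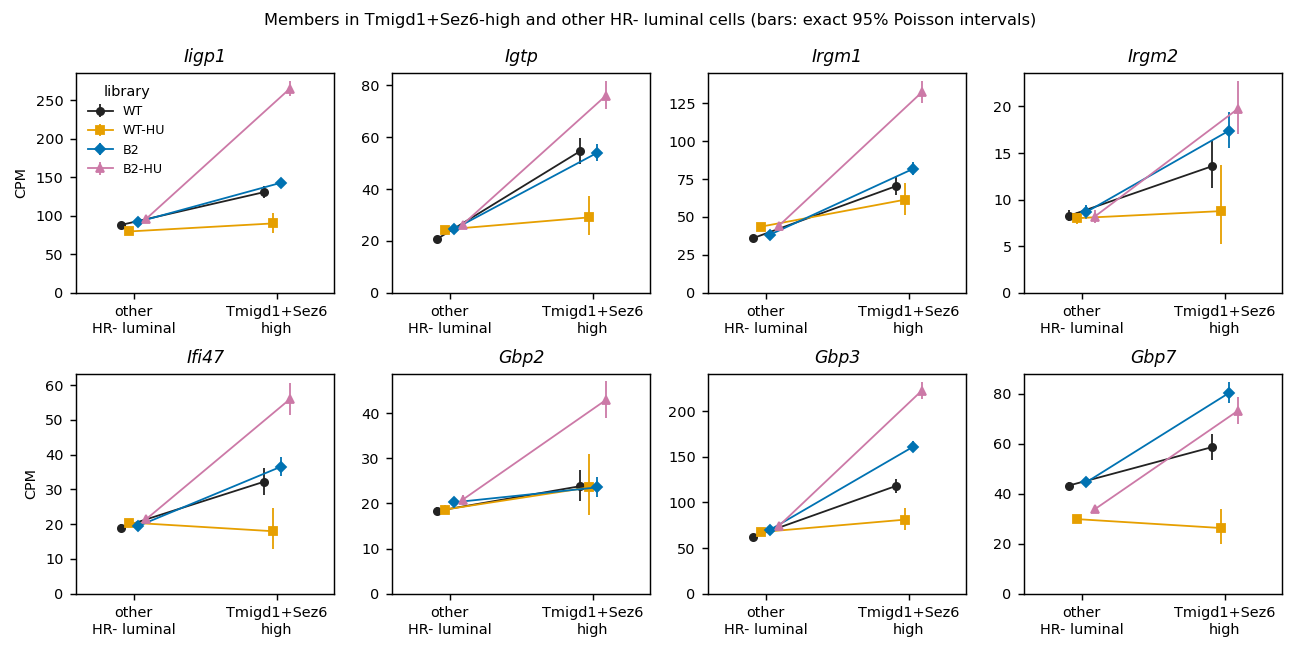
CPM of the 8 more abundant genes in HR- luminal cells below (left) and at or above (right) 150 CPM of Tmigd1 and Sez6, with lines joining the values of 1 library and exact 95% Poisson intervals. Lines rise steeply in B2-HU, where Gbp3 goes from 74.0 to 222.7 CPM, and less in WT-HU, where Gbp3 goes from 67.6 to 81.2 and Irgm1 from 43.6 to 61.3 CPM. Inside antibody tag 2 of B2-HU alone (not drawn) Gbp3 goes from 183.7 to 231.6 CPM.

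These cells were unevenly spread over the 4 antibody tags that each library carried, whose key is not given in the sources used here. In B2, 637 of the 801 cells bore tag 2 and made up 92.1% of the HR- luminal cells with it. In B2-HU tag 2 marked 325 of 424. The comparison was therefore repeated inside the 4 tag pools with at least 50 cells of both kinds (tags 2 and 4 of WT, tag 2 of B2 and of B2-HU). The summed members were higher in 4 of 4, by 0.38 to 0.62 on the log2 scale. Iigp1 (0.42 to 0.52), Irgm1 (0.46 to 0.68) and Gbp3 (0.33 to 0.71) had intervals above 0 in each of these pools. The interval was above 0 in 3 of 4 pools for Gbp7, in 2 for Igtp, Irgm2 and Ifi47, and in 1 for Gbp2. Igtp was not higher in tag 2 of B2 (56.0 against 66.6 CPM). Inside tag 2 of B2-HU Iigp1 was at 271.0 against 189.2 CPM (0.52) and Gbp3 at 231.6 against 183.7 (0.33). Both differences were smaller there than over the whole library. The other HR- luminal cells of that tag had 684.8 CPM of the summed members, against 325.7 in those of all B2-HU. The part of the tags in the uneven size of the difference between libraries was not tested. Of 13 immune markers, Ptprc, Nkg7, Adgre1 and Laptm5 had no UMI in the HR- luminal cells of any library, and the 13 together came to 2.63 to 3.51 CPM there and 1.89 to 2.77 CPM in the cells with the marker genes.

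The study's question for hydroxyurea is how replication stress changes expression in each genotype. In wild-type HR- luminal cells few of these genes differed between the treated and the control library. A gene was counted as higher or lower where the ratio of the libraries passed 1.2-fold with a 95% interval that left out 1, an interval that holds counting error only. Among the 7 members with at least 10 CPM in this contrast, 0 were higher and 1, Gbp7, was lower, beside 6.45% higher and 7.71% lower of all genes at that level. Gbp7 was at 44.5 CPM in WT and 29.7 in WT-HU (log2 ratio -0.58, 95% interval -0.65 to -0.51). The 4 tag pools of WT lay at 40.7 to 51.5 CPM and those of WT-HU at 28.0 to 30.2, without overlap. No other member or contrast of the 4 showed this in HR- luminal cells. The share of all genes whose pools lay apart was not computed, so how unusual this is cannot be said. In Brca2mut/WT cells Gbp7 was again the only one of 8 members at that level to be called, with 52.1 CPM in B2 and 39.3 in B2-HU (-0.41, interval -0.48 to -0.34), beside 3.91% of genes higher and 5.44% lower. There the pools overlapped, at 40.8 to 82.4 CPM in B2 and 27.1 to 74.3 in B2-HU. Within 1 tag number the treated pool was the lower in 4 of 4 in both genotypes, though no source says that equal numbers pair the pools. Both ratios were close to these values without the cells at 150 CPM or more of Tmigd1 and Sez6 (-0.54, beside 8.94% of genes higher and 7.92% lower, and -0.40, beside 4.37% and 4.52%). Inside those cells Gbp7 was at -1.16 in wild type (interval -1.58 to -0.76). In Brca2mut/WT it was at -0.14 there (interval -0.27 to -0.0069), within 1.2-fold. The wider cell filter changes the gene and mitochondrial limits together. With it the ratio of Gbp7 stayed near its value in wild type (-0.62) but was -0.21 in Brca2mut/WT, under the 1.2-fold limit. There 5 other members were called higher in B2-HU than in B2. The shares of all genes called with that filter were not computed. In basal cells Gbp7 went from 19.0 to 12.6 CPM in wild type (-0.59, interval -0.84 to -0.34), while in Brca2mut/WT it was at 27.3 and 25.1 CPM (-0.12, interval -0.42 to 0.19).

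Over all HR- luminal cells, the other members at 10 CPM or more moved less than Gbp7 after hydroxyurea, and in different directions. Iigp1 was lower in WT-HU than in WT (-0.19, interval -0.24 to -0.15) and higher in B2-HU than in B2 (0.22, interval 0.18 to 0.27), both within 1.2-fold. Without tag pool 2 of B2-HU the second ratio was -0.091, and leaving out other pools 1 at a time took it up to 0.42. Irgm1 was higher in both treated libraries (0.19 and 0.25) and Irgm2 lower in both, within its counting error (-0.11 and -0.10). The rare genes Gbp5 (60 against 122 UMIs) and Gm4841 (92 against 153) were lower in WT-HU than in WT, by -0.75 and -0.46, and without tag pool 3 of WT the ratio of Gbp5 was 0.0028. The share of cells with a Gm4841 UMI was 0.607% in WT-HU and 0.570% in WT. Igtp, Ifi47, Gbp2 and Gbp3 were within 0.07 of 0 in wild type, and between 0.09 and 0.19 above it in Brca2mut/WT. The summed members differed by -0.09 in wild type and 0.10 in Brca2mut/WT. Without pool 2 of B2-HU the second of these was -0.22, with 4 members lower. Without pool 2 of B2 it was 0.34, with 5 higher. The shares of all genes called without a pool were not computed. Inside the cells at 150 CPM or more of Tmigd1 and Sez6 the sum differed by -0.57 in wild type and 0.57 in Brca2mut/WT. There Iigp1 (0.89), Gbp2 (0.86), Irgm1 (0.69), Ifi47 (0.61), Igtp (0.49) and Gbp3 (0.47) were higher in B2-HU, and Irgm2 (0.18) was not called. In WT-HU Igtp (-0.91), Ifi47 (-0.84), Iigp1 and Gbp3 (both -0.54) were lower, and Irgm1, Irgm2 and Gbp2 were not called. Shares of all genes were not computed there.

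**Figure D3:**
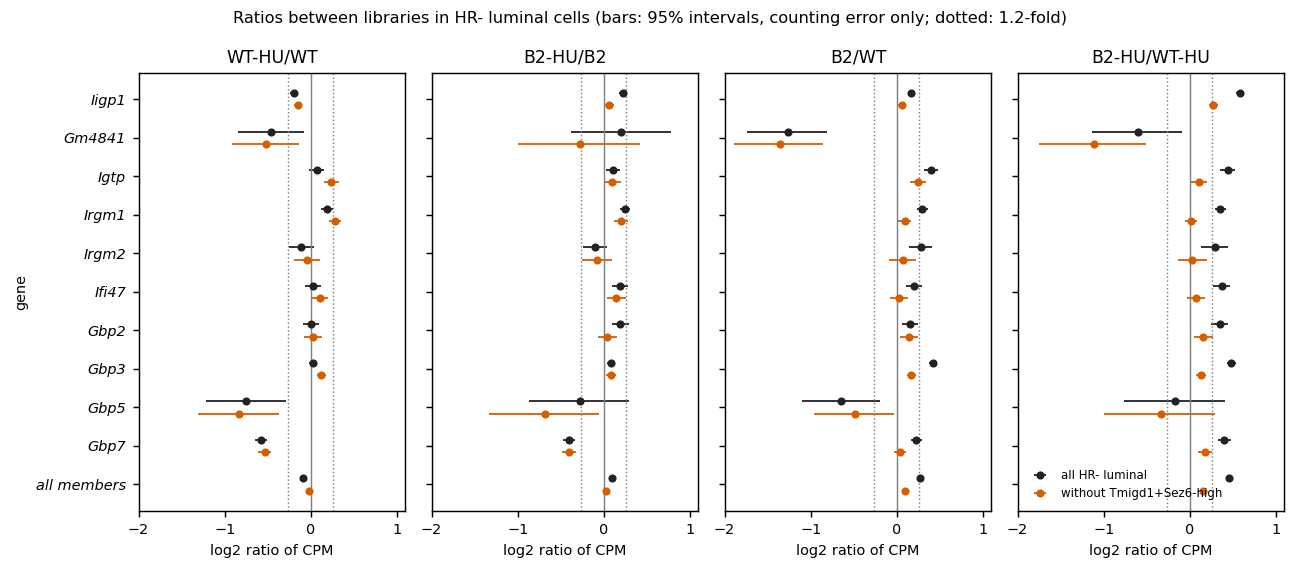
Log2 ratio of CPM between libraries in HR- luminal cells for each gene and for their sum, over all cells (black) and without the cells at 150 CPM or more of Tmigd1 and Sez6 (orange), with 95% intervals for counting error; dotted lines mark 1.2-fold. Gbp7 lies left of the line in both hydroxyurea contrasts, and the B2-HU/WT-HU ratio of the summed members falls from 0.46 to 0.15 when those cells are left out.

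Between genotypes, members were called higher in the mutant library in both contrasts. In untreated organoids 4 of the 8 members at 10 CPM or more were higher in B2 than in WT: Gbp3 (0.42, interval 0.38 to 0.47), Igtp (0.40, 0.32 to 0.48), Irgm1 (0.30, 0.23 to 0.36) and Irgm2 (0.28, 0.14 to 0.41), beside 5.76% of all genes higher and 2.75% lower. After hydroxyurea 7 of 7 were higher in B2-HU than in WT-HU, beside 4.85% of all genes higher and 1.82% lower, led by Iigp1 (0.59, interval 0.54 to 0.64) and Gbp3 (0.48, 0.43 to 0.53). Irgm2 was just under 10 CPM in both and was also higher (0.29). Gm4841 was lower in B2 than in WT, with 53 against 153 UMIs (-1.27, interval -1.75 to -0.81), and in B2-HU than in WT-HU, with 50 against 92 UMIs (-0.61), the latter turning to 0.77 with no filter on cells. More cells of the mutant libraries had a Gm4841 UMI, 30 of 3592 in B2 and 31 of 2750 in B2-HU. In WT it was 24 of 4209 and in WT-HU 21 of 3457. In WT the 10 highest cells held 136 of the 153 UMIs, a clumping that the interval does not cover. Gbp5 was also lower in B2 than in WT, with 65 against 122 UMIs (-0.65, interval -1.10 to -0.20), a ratio that was 0.11 without tag pool 3 of WT. These contrasts share libraries with those of hydroxyurea and are not independent of them.

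The pools within a library spread more widely than most of these ratios. The summed members were at 266.6 to 448.7 CPM in the 4 pools of WT, 273.3 to 349.0 in WT-HU, 250.4 to 596.1 in B2 and 298.7 to 889.5 in B2-HU. In every library tags 2 and 4 lay above tags 1 and 3, most narrowly in B2-HU (330.5 CPM in tag 4 and 328.1 in tag 1). Tags 1 and 3 had 307.7 and 250.4 CPM in B2, against 266.6 and 323.5 in WT. They had 328.1 and 298.7 in B2-HU, against 284.5 and 273.3 in WT-HU. In B2-HU, tag 2 stood apart, with 260.8 CPM of Iigp1 and 225.5 of Gbp3, while the other 3 pools had 82.5 to 96.3 and 67.4 to 85.9. Without the cells at 150 CPM or more of Tmigd1 and Sez6, an alternative chosen after the data were seen, 0 of 7 members were higher in B2 than in WT (1.69% of all genes, and 1.67% lower) and 1 of 7, Iigp1 (0.28), in B2-HU than in WT-HU (2.86% of all genes, and 2.27% lower). The ratio of the summed members then went from 0.27 to 0.10 and from 0.46 to 0.15. Without pool 2 of B2 or pool 1 of WT, 0 members were higher in B2 than in WT. Without pool 2 of B2-HU, 1 was higher in B2-HU than in WT-HU. The share of all genes higher without a pool was not computed. The wider cell filter kept more of these cells, 1344 in B2-HU and 193 in WT-HU, and with it the B2-HU/WT-HU ratio of the summed members was 0.79. Which of its changed limits moved the ratio was not tested. Tags 2 and 4 marked 692 and 417 HR- luminal cells in B2, against 182 and 393 in WT. They marked 398 and 124 in B2-HU, against 577 and 253 in WT-HU. No source says that equal tag numbers match across libraries. The share of cells at 150 CPM or more of Tmigd1 and Sez6, the mix of tags, the mix of passages and the genotype cannot be told apart with 1 library each.

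**Figure D4:**
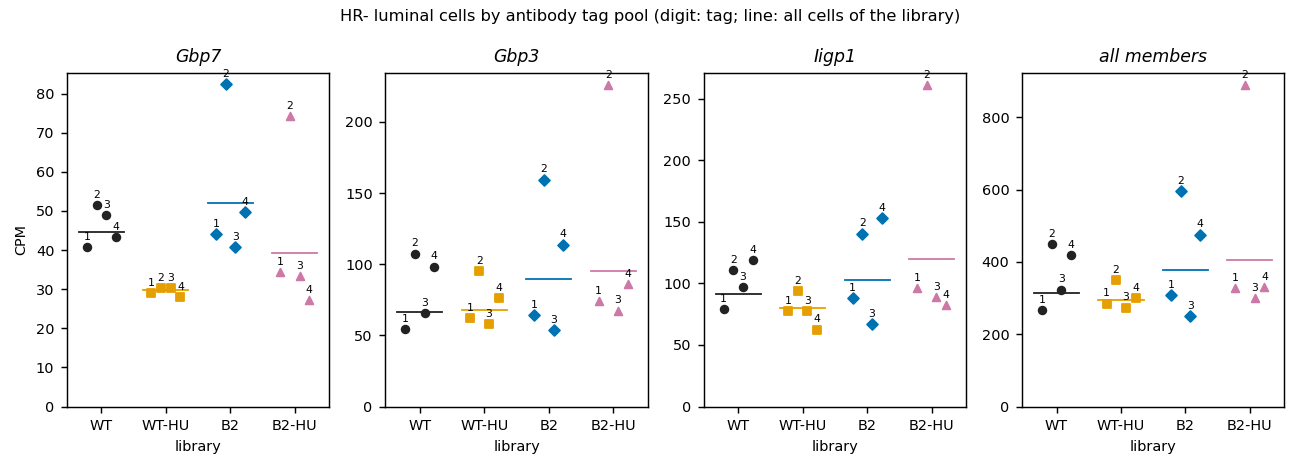
CPM of Gbp7, Gbp3, Iigp1 and the summed members in HR- luminal cells of each antibody tag pool (digits give the tag) with a line at the value of the whole library. The Gbp7 pools of WT-HU (28.0 to 30.2 CPM) lie below all pools of WT (40.7 to 51.5), and tag 2 of B2-HU lies far above the other pools for Gbp3, Iigp1 and the sum.

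In basal cells the counts were smaller and the calls more mixed. In the contrast of WT-HU with WT, Irgm1 (38.8 against 25.3 CPM) and Ifi47 (11 against 4.94) were higher and Gbp2, Gbp3 and Gbp7 were lower, among 7 members at 10 CPM or more, beside 15.2% of all genes higher and 13.6% lower. Tag pools with at least 50 basal cells overlapped for Irgm1 (22.1 to 40.3 against 24.6 to 29.6 CPM) and Ifi47 (6.84 to 16.4 against 2.40 to 9.50). They also did for Gbp2 and Gbp7, and those of Gbp3 lay apart. Of the WT pools, tag 4 had 2.40 CPM of Ifi47, and tags 1 and 3 had 9.50 and 8.68. In B2-HU against B2 only Iigp1 was higher among 7 (26.0 against 16.8 CPM), beside 9.52% of genes higher and 7.61% lower. Ifi47, Gbp2 and Gbp7 were higher in B2 than in WT, 3 of 7, beside 9.32% of genes higher and 8.57% lower. Iigp1, Igtp, Gbp2, Gbp3 and Gbp7 were higher in B2-HU than in WT-HU, 5 of 7, beside 15.4% of genes higher and 13.1% lower. Pools of the called members overlapped in B2-HU/B2 and B2/WT. In B2-HU/WT-HU those of Gbp2 and Gbp3 lay apart and those of Iigp1, Igtp and Gbp7 overlapped. The share of all genes whose basal pools lay apart was not computed. The 4 GBP genes together were at 53.6 CPM in WT, 37.3 in WT-HU, 68.7 in B2 and 70.2 in B2-HU. Irgm1 was at 38.8 CPM in WT-HU and 33.4 in B2-HU (log2 ratio -0.21, interval -0.43 to -0.0016, within 1.2-fold).

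The UMIs of Gm4841 and Gbp5 were concentrated in very few cells. In WT, 24 of 4209 HR- luminal cells had a UMI of Gm4841, and the 10 highest of these held 88.9% of its 153 UMIs. In WT-HU 21 of 3457 cells had one, and the 10 highest held 85.9% of 92 UMIs. In B2 30 of 3592 cells had one, and the 10 highest held 62.3% of 53 UMIs. In B2-HU 31 of 2750 cells had one, and the 10 highest held 58.0% of 50 UMIs. For Gbp5 the same share was 45.1%, 58.3%, 55.4% and 54.5%. The 10 highest cells held 1.84% to 2.68% of Gbp3 UMIs, which were found in 67.0% to 73.4% of cells. Gbp3 had 5830 to 7739 UMIs per library. A gene with few UMIs has a larger share in 10 cells for that reason alone, so these shares are not compared between genes or libraries. Free RNA in droplet data can give single UMIs in cells that do not express a gene. The basal cells of B2-HU held 1 UMI of Gm4841 and those of B2 held 0, which allows up to 0.447 CPM.

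When HR- luminal cells were put in 10 bins by their summed level of antiviral genes such as Ifit1 and Isg15 (18 of 20 listed were found in the matrices, none of them a member), the GTPases increased from bin to bin. The level of all members together went from 106.0 CPM in the lowest bin to 815.4 in the highest in WT, from 99.7 to 696.6 in WT-HU, from 101.2 to 1091 in B2 and from 117.2 to 1246 in B2-HU. In WT, Iigp1 went from 15.7 to 275.4 CPM, while Gbp2 went from 10.0 to 44.6. The highest bin held 27.5% to 31.9% of Iigp1 UMIs and 17.0% to 24.5% of Gbp3 UMIs over the libraries, but 62.0% to 92.4% of Gm4841 UMIs. In the top 1% of cells (42 in WT, 35 in WT-HU) lay 84.3% and 83.7% of Gm4841 UMIs in these libraries, against 45.3% in B2 and 6% in B2-HU. The top cells of B2 and B2-HU were shallow, with a median of 5362 and 4818.5 UMIs against 25049 and 27681.5 in the rest, so there the ranking rested on fewer UMIs per cell. These are descriptions across cells of single libraries, and genes measured in the same cells share depth.

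**Figure D5:**
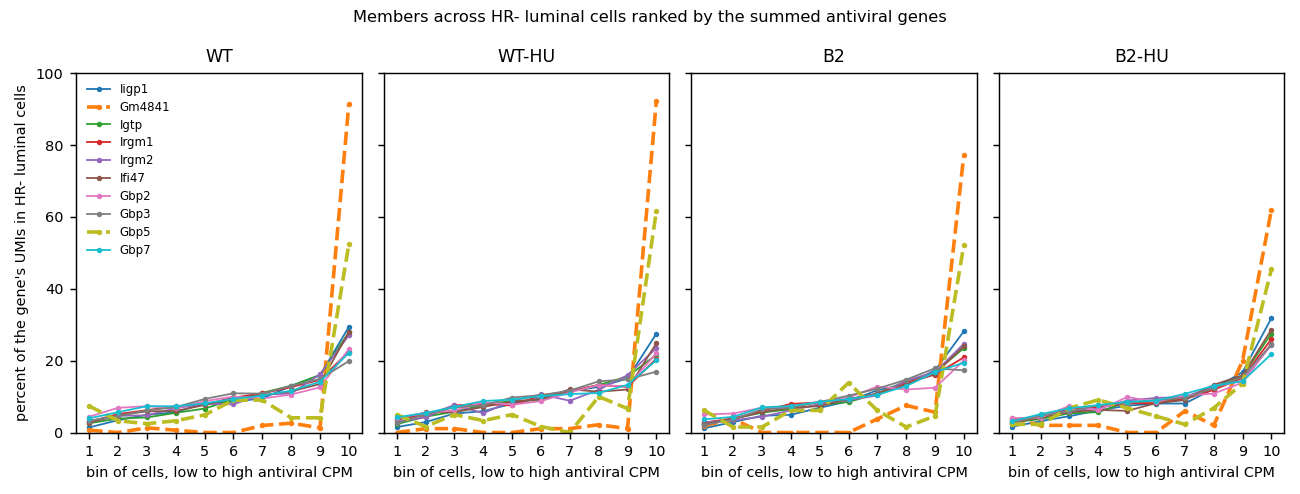
Share of each gene's UMIs (percent) found in each of 10 bins of HR- luminal cells, ordered from low to high summed CPM of the antiviral genes, per library; dashed lines are Gm4841 and Gbp5. The highest bin holds 62.0% to 92.4% of Gm4841 UMIs and 45.5% to 61.7% of Gbp5 UMIs, and 17.0% to 31.9% of those of the other 8 genes.

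Cells that carried a transcript of the interferon genes counted were rarer still. Ifna4 was the only interferon alpha gene among those counted. UMIs of the 7 ligand genes (Ifnb1, Ifna4, Ifng, Ifnl2, Ifnl3, Ifnk and Ifne) were found in 10 of 5312 cells in WT, 2 of 4617 in WT-HU, 1 of 4138 in B2 and 1 of 3293 in B2-HU. Ifng, the ligand that induces IRG and GBP genes most strongly, and Ifna4 had none. A WT-HU cell of the HR- luminal class held 109 Ifnb1 UMIs among 7647 in all, together with 8 UMIs of Gbp2 and 6 of Gbp5 but 0 of Iigp1 and Igtp. A B2-HU cell of the HR+ class held 5 Ifnb1, 11 Ifnl2 and 3 Ifnl3 UMIs, and with them 23 UMIs of Gbp3, 18 of Gbp2 and 18 of Gbp7. The 2 cells of WT with 10 or more ligand UMIs had 0 and 5 UMIs of Gbp5. These 4 cells were picked after their values were seen, and no level per condition follows from them.

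The genes whose level over the 16 tag pools of HR- luminal cells was most like that of the summed members were Ifi44 (Pearson r = 0.991 on log2(CPM + 1)), Ifit3 (0.979), Xaf1 (0.973), Ube2l6 (0.971) and Rnf213 (0.970), among 7646 genes compared. Ifi44 and Ifit3 are also on the antiviral list. Among the members, Igtp, Irgm1, Irgm2 and Gbp3 followed each other most closely (r = 0.922 to 0.968), Gbp7 less so (0.632 with Igtp and 0.427 with Gbp2), and Gbp5 ran slightly opposite to most of them (-0.396 with Igtp). Pools of 1 library share its preparation and depth, so these values describe likeness and carry no test.

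Other genes of the pathway were counted for comparison from lists that were drawn up by pathway, with earlier results of these data known. Among all genes tested, 33.3% were lower and 32.4% higher in basal cells, and 34.2% were lower and 31.3% higher in HR+ cells. In the cells at 150 CPM or more of Tmigd1 and Sez6 these shares were 20.5% and 18.2%. Of 17 further IRG and GBP genes, 5 were abundant enough for the lineage test. Gbp6 (-2.49), Gm4951 (-2.10), Gbp9 (-1.85) and Gbp2b (-0.89) were lower in basal than in HR- luminal cells, and 9930111J21Rik2 did not pass. In the cells at 150 CPM or more of Tmigd1 and Sez6, 5 of 9 were higher, Gbp4 (2.53), F830016B08Rik (1.92), Gbp9 (1.36), Gm5431 (1.08) and Gbp6 (0.95), and 0 lower. Of the antiviral genes, 17 of 18 tested were lower in basal cells, 13 of 18 in HR+ cells, and 11 of 18 were higher in the Tmigd1 and Sez6 cells. Of 12 signalling genes, 7 were lower in basal cells, among them Irf7 (-2.29) and Irf8 (-1.89), transcription factors of the response. In the Tmigd1 and Sez6 cells Stat2 (0.97), Irf1 (0.38), Irf8 (3.37) and Usp18 (0.83), a brake on the type I receptor, were higher and Jak2 (-0.27) lower.

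Of 6 interferon receptor genes, Ifnar2 (-0.85), Il10rb (-0.59) and Ifnlr1 (-1.10) were lower in basal cells and Ifngr1 (0.64) was higher, while Ifnar1 (0.23) and Ifngr2 (-0.21) did not pass. Ifnar2 was at 96.4 to 102.8 CPM in HR- luminal cells of the 4 libraries and at 49.6 to 72.7 in basal cells. Among genes more often linked to interferon gamma, 5 of 10 were lower in basal cells, beside 33.3% of all genes. The 5 included the immunoproteasome genes Psmb8 (-1.24) and Psmb9 (-1.21). Ciita, the regulator of MHC class II (1.96), and Cd274 (1.21) were higher in the Tmigd1 and Sez6 cells, in which the class II gene H2-Ab1 (-2.18) and Cxcl10 (-2.72) were lower. The 10 genes tested of ubiquitin-like conjugation help load GTPases on membranes. In basal cells 5 were higher and 2 lower, beside 32.4% and 33.3% of all genes. In the Tmigd1 and Sez6 cells 5 were higher and 1 lower, beside 18.2% and 20.5%. The very large inducible GTPases had no gene abundant enough for the test.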

How the data were processed

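Each of the 4 libraries (10x Chromium version 3 chemistry) was deposited as a matrix of whole UMI counts per gene and barcode, not normalized. The authors aligned reads to mm10 and counted with Cell Ranger (6.0.2 in their notes, 6.1.1 in the matrix headers). The gene list does not match the reference package named in the methods. Antibody tag counts came in the same matrices. The members and all gene lists were chosen with earlier results of these data known.

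Barcodes with 1000 to 6000 genes and under 5% mitochondrial UMIs were kept as the methods state, 17360 of 33268, fewer than the cell number the study gives. No doublet caller was run. Cells with more than 1 tag stayed in and were left out in an alternative. Library depth was 82186830 to 126866429 kept UMIs. UMIs were summed per library and class, and lineages and Tmigd1 and Sez6 classes were tested with edgeR 4.0.16 (R 4.3.3; quasi-likelihood, TMM, filterByExpr, library as block, threshold 0.05), checked on simulated counts. The libraries differ in genotype and treatment, so their spread includes those effects. DESeq2 1.42.0 was an alternative. Conditions had 1 library each: exact Poisson intervals and exact ratio intervals at 95% are given, which cover counting error only, and a count of 0 allows 3 counts. The genes named were all members, the 5 genes most like their sum over tag pools, and examples from the lists. Cells with ligand UMIs, comparisons within tag pools and ratios without the Tmigd1 and Sez6 cells were added after the data were seen. The sums without HR+ cells that held Gm4841 or Gbp5 UMIs were added then too.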

Additional observations from a re-analysis of the deposited data

Results flagged for a closer look

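Effects of hydroxyurea ran in opposite directions in the 2 genotypes for Iigp1 in HR- luminal cells, with a log2 ratio of treated to control of -0.19 in wild type and 0.22 in Brca2mut/WT. The 6 IRG genes together gave -0.046 and 0.20, and all 10 members -0.093 and 0.099. With 1 library per condition the difference between genotypes was not tested. Within 1 tag number Iigp1 was lower under hydroxyurea in 4 of 4 in wild type and in 1 of 4 in Brca2mut/WT. No source says that equal numbers pair the pools, and the pools are not replicates. Their ranges overlapped in both genotypes, at 62.5 to 93.8 CPM in WT-HU against 79.2 to 118.8 in WT. Those of B2-HU and B2 were 82.5 to 260.8 and 66.6 to 153.0. Leaving out 1 pool at a time moved the Iigp1 ratio in Brca2mut/WT from -0.091 (without pool 2 of B2-HU) to 0.42. In wild type it moved from -0.32 to -0.14. The ratios of Iigp1 were -0.14 and 0.067 without the cells at 150 CPM or more of Tmigd1 and Sez6, and -0.54 and 0.89 inside them.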

How the results depend on the processing

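Log2 ratios of the summed members depended on which cells were counted. In the order WT-HU/WT, B2-HU/B2 and B2-HU/WT-HU, those in HR- luminal cells were -0.22, 0.30 and 0.79 with no upper limit on genes per cell (under 10% mitochondrial) and also with no filter on cells. In basal cells, in the order WT-HU/WT, B2-HU/B2, B2/WT and B2-HU/WT-HU, they were -0.12, 0.043, 0.11 and 0.27 with the first of these settings and -0.13, 0.045, 0.13 and 0.31 with the second. Both settings called 2 members lower in WT-HU/WT and 5 higher and 0 lower in B2-HU/B2. With cells thinned to 5000 UMIs the ratios were 0.16 (B2-HU/B2), 0.51 (B2-HU/WT-HU) and -0.11 (basal WT-HU/WT), and 1, 2 and 2 members were higher in WT-HU/WT, B2-HU/B2 and B2/WT. With the mean of per-cell CPM they were 0.15 (B2-HU/B2), 0.32 (B2/WT), 0.56 (B2-HU/WT-HU), and in basal cells -0.32 (WT-HU/WT), 0.041 (B2/WT) and 0.66 (B2-HU/WT-HU), with 2 members higher in B2-HU/B2. TMM factors gave 0.23 (B2/WT) and 0.41 (B2-HU/WT-HU). Stricter lineage cut-offs gave 0.24 (B2/WT), and in basal cells 0.025 (B2-HU/B2) and 0.24 (B2-HU/WT-HU). Without the Tmigd1 and Sez6 cells, in the order WT-HU/WT, B2-HU/B2, B2/WT and B2-HU/WT-HU, the ratios were -0.022, 0.030, 0.097 and 0.15, with 1, 0, 0 and 1 members higher. The causes were not tested. For these ratios, shares of all genes called were computed for the main setting and without the Tmigd1 and Sez6 cells, not for the other settings.

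Leaving out 1 tag pool at a time moved the summed ratio from -0.24 to -0.029 (WT-HU/WT), -0.22 to 0.34 (B2-HU/B2), 0.026 to 0.46 (B2/WT) and 0.14 to 0.65 (B2-HU/WT-HU), and in basal cells from -0.22 to 0.067, 0.13 to 0.27, 0.035 to 0.33 and 0.40 to 0.51. The members called higher ranged from 0 to 1, 0 to 6, 0 to 8 and 1 to 7. Those called lower ranged from 1 to 2 in WT-HU/WT and 0 to 4 in B2-HU/B2. The shares of all genes called without a pool were not computed. Gbp5 ranged from -1.05 to 0.0028 (WT-HU/WT) and from -1.35 to 0.11 (B2/WT), both reaching above 0 without pool 3 of WT. Gm4841 in B2-HU/WT-HU turned to 0.78 with no upper limit on genes and under 10% mitochondrial, and to 0.77 with no filter on cells.

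For the tests, Gbp2 in HR+ cells turned to -0.059 and -0.061 under the same 2 settings, and 1 member was higher there with only cells of 1 tag. Beside it 3956 of 12973 genes were higher. Gm4841 in the Tmigd1 and Sez6 cells ranged from -1.31 without B2-HU to 0.47 without WT. Leaving out a library gave 8 to 10 members lower in basal cells, 7 to 8 lower in HR+ cells, and 5 to 7 higher and 0 to 1 lower in the Tmigd1 and Sez6 cells. Of all 12637 to 13767 genes tested, 3813 to 4174 were then lower in basal and 3916 to 4051 in HR+ cells. In the Tmigd1 and Sez6 cells 1555 to 2635 of 14100 to 14413 were higher and 2046 to 2817 lower. Without the library block, which pairs the classes of 1 library, the same counts of members were 8 and 7 lower and 6 higher. Beside them 4197 and 4363 of 13251 genes were lower and 2526 of 14174 higher. Gbp2 (0.43) and Gbp7 (0.59) lost their call in the Tmigd1 and Sez6 cells. Gbp2 in those cells also missed the threshold with DESeq2, a cut-off of 80 CPM and both wider cell filters. No paired analysis was possible between conditions because each had 1 library. Gm4841 and Gbp5, with 44 to 153 UMIs per library in HR- luminal cells, are the values that depth limits most.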
